A study of Homo sapiens with 2 samples.

Results

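Transcripts of 54 genes for cytosolic and mitochondrial heat shock chaperones were described in HGC-27, an established line of human gastric cancer cells, out of 16021 genes or gene models measured. The genes were chosen by name, as rows whose Entrez number maps to a member of these families: 2 heat shock factors, the HSP90, HSP70 and HSP110 chaperones, the mitochondrial chaperonin, small heat shock proteins, J proteins, co-chaperones, the chaperonin TRiC and prefoldin. All 54 had a row (HSPB11 under its current symbol IFT25), and 52 reached a mean of 1 FPKM over the libraries, where FPKM is the fragment number scaled to transcript length and to all mapped fragments of a library. HSPA1A and HSPA2 did not reach it. The DDX5 shRNA cells were HGC-27 transduced with lentivirus that expressed an shRNA against the RNA helicase gene DDX5, and the non-targeting shRNA cells carried a control lentivirus. Puromycin was added to both 48 h after transduction, and cells were collected 1 week later, so every cell measured had been through viral transduction and drug selection. Each condition was 1 library, no spread between cultures could be had, and no test was run. The sources used here give neither the shRNA sequence nor how many were used, and the cells were a drug-selected pool as far as the labels say.

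Chaperones help proteins fold and keep them from aggregating. HSP70 binds short stretches of unfolded protein and is loaded by J proteins, and HSP90 acts later, on nearly folded kinases, receptors and transcription factors. TRiC is a ring that encloses actin and tubulin, and prefoldin delivers such proteins to it. In the heat shock response, the transcription factor HSF1 binds repeats of nGAAn, the heat shock element, in front of chaperone genes. Some family members are strongly induced this way (here called heat-inducible, a class of 18 members taken from textbook knowledge), while close paralogs are made at a steady level. The class was set with earlier results of these libraries known. Cancer cells often keep high chaperone levels without heat.

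DDX5 itself had 50.78 FPKM in the DDX5 shRNA library against 170.5 FPKM in the non-targeting library, 29.8% of the control. Fragment numbers are not stated in the table, but the steps between low values of genes with 1 annotated transcript corresponded to 12050000 to 16050000 fragments for the DDX5 shRNA library and 12450000 to 16400000 for the non-targeting library, depending on the correction for transcript ends. At the best-fitting step, 181 fragments was the lowest estimate for a member past the filter (BAG3 in the DDX5 shRNA library). Total FPKM was 594756.9 in the DDX5 shRNA library and 549128.67 in the non-targeting library, and with both set to the same total the median log2 ratio of all genes shifts by -0.10. The label names a gastric adenocarcinoma, yet of 6 epithelial markers MUC1 and KRT8 alone reached a mean of 1 FPKM. CDH1 was at 0.07 FPKM in the DDX5 shRNA library and 0.36 FPKM in the non-targeting library, EPCAM was at 0.39 FPKM in the DDX5 shRNA library and 0.04 FPKM in the non-targeting library, and KRT19 had no row. The 3 blood and endothelial markers with a row, of 6 listed, summed to 2.5 FPKM in each library.

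Chaperone transcripts were lower in the DDX5 shRNA library across most families, by more among those that heat induces. Of the 52 members past the filter, 8 were at least 2-fold lower on the scale of FPKM + 1, against 2.26% of all 11413 genes past the filter, and these were HSP90AA1, HSPA1B, HSPH1, DNAJA1, HSPE1, HSPA8, CHORDC1 and HSPD1. At least 2-fold higher was 1 member, CRYAB, against 4.19% of all genes. A log2 ratio below 0 was found for 43 members, against 47.8% of all genes. The median log2 ratio was -0.54 over the members and 0.02 over all genes past the filter (-0.66 and -0.08 with both libraries at the same total). Among 17 heat-inducible members past the filter the median was -0.89 and 7 were at least 2-fold lower, whereas among the 35 others it was -0.40 and 1 was, HSPA8. Because the class was set with earlier results of these libraries known, this contrast is a description and not an independent comparison. In a bulk library, fewer cells that make a transcript and less transcript per cell cannot be told apart.

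Just inside the 2-fold limit were CHORDC1 and HSPD1, at log2 ratios of -1.06 and -1.02, and just outside it TCP1, HSP90AB1 and BAG1, at -0.99, -0.96 and -0.96. With both libraries at the same total, 13 members were at least 2-fold lower, against 3.33% of all genes, 1 was at least 2-fold higher, against 3.3%, and 45 had a log2 ratio below 0, against 56.8%. Among 41 members with under 10% of their windows in another gene, where a window is 50 bases of the transcript and the setting was chosen after the data were seen, 3 were at least 2-fold lower (HSPH1, DNAJA1 and CHORDC1), beside 2.26% of all genes, whose shared windows were not computed.

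**Figure D1:**
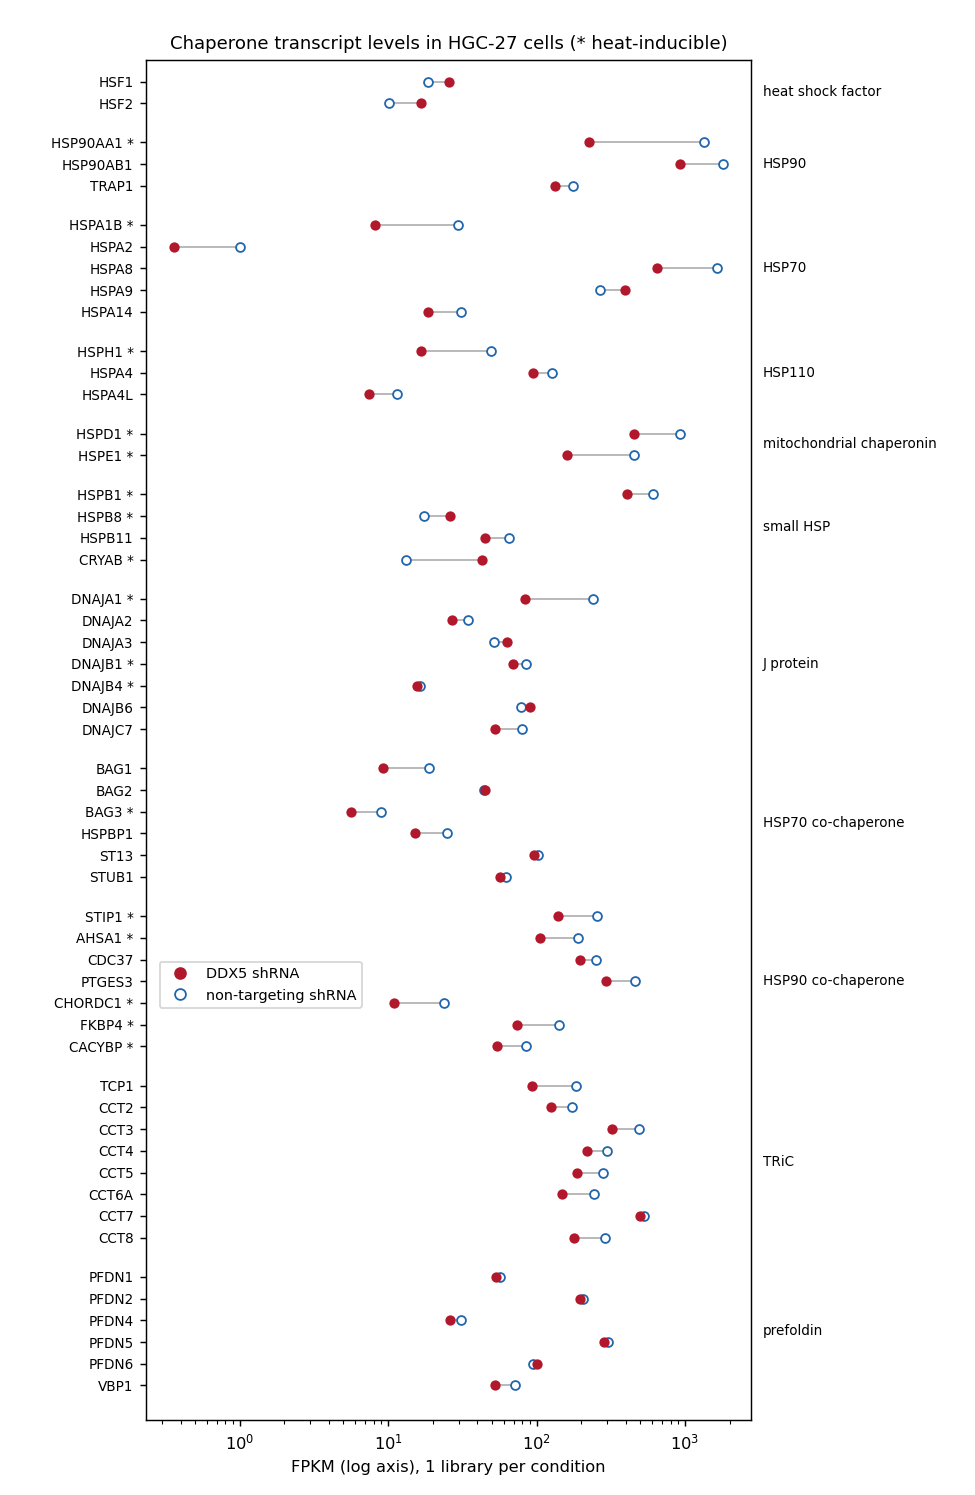
FPKM on a log axis for 53 members, grouped by role, with filled points for the DDX5 shRNA library and open points for the non-targeting library, 1 library each. Asterisks mark heat-inducible members, and HSPA1A is left out because it is listed at 0 in the DDX5 shRNA library. The filled point lies left of the open one for most members, with the widest gap for HSP90AA1, at 223.95 FPKM in the DDX5 shRNA library and 1345 FPKM in the non-targeting library.

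The members made up 1.28% of all FPKM in the DDX5 shRNA library and 2.39% in the non-targeting library. The cytosolic HSP90 genes HSP90AA1 and HSP90AB1 and the constitutive HSP70 gene HSPA8 accounted for much of that gap, summing to 1797.39 FPKM in the DDX5 shRNA library and 4808.31 FPKM in the non-targeting library. The other 51 members summed to 5841.88 FPKM in the DDX5 shRNA library and 8302.99 FPKM in the non-targeting library, a ratio of 0.70. Of 755 genes at a mean of 100 FPKM or more, 3.71% were at least 2-fold lower and the median log2 ratio was 0.04, while the 25 members at that level had a median of -0.65 and 5 were at least 2-fold lower.

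The heat shock factors themselves were not lower. HSF1, the main activator of the heat shock response, stood at 25.71 FPKM in the DDX5 shRNA library and 18.67 FPKM in the non-targeting library, a log2 ratio of 0.44. HSF2, which can form mixed trimers with HSF1, stood at 16.54 FPKM in the DDX5 shRNA library and 10.15 FPKM in the non-targeting library, a log2 ratio of 0.65. HSF1 is controlled mainly at the protein level, by release from chaperones and by phosphorylation, which these data did not measure.

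HSP90AA1 had the lowest log2 ratio of the members. HSP90AA1, the heat-inducible cytosolic HSP90, stood at 223.95 FPKM in the DDX5 shRNA library and 1345 FPKM in the non-targeting library, a log2 ratio of -2.58, which ranked 2 from the lowest among 11413 genes. HSP90AB1, its constitutive paralog, stood at 929.95 FPKM in the DDX5 shRNA library and 1811.05 FPKM in the non-targeting library, a log2 ratio of -0.96. Among members ordered by FPKM, HSP90AB1 was the highest in each library, while HSP90AA1 ranked 10 in the DDX5 shRNA library and 3 in the non-targeting library. HSP90AA1 made up 19.4% of the pair in the DDX5 shRNA library and 42.6% in the non-targeting library. TRAP1, the mitochondrial HSP90, stood at 132.92 FPKM in the DDX5 shRNA library and 175.09 FPKM in the non-targeting library, a log2 ratio of -0.39. No 50-base window of HSP90AA1 or HSP90AB1 occurs in another protein-coding transcript of GENCODE v29, but 18.4% and 18.6% of them occur in a transcript of another kind of gene, so their values could depend on how reads were divided.

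Both HSP90 genes carry matches to the heat shock element just before an annotated start. The stretches below are shown because they hold the matches of the member with the lowest ratio and of its paralog. They are from RefSeq on GRCh38.p14, 5′ to 3′ in the direction of transcription, with matches to GAANNTTC or TTCNNGAA in capitals. That of HSP90AA1 is chr14:102087095-102087164, minus strand, bases -120 to -51 from the gene start, and that of HSP90AB1 is chr6:44247763-44247852, plus strand, bases -180 to -91.
HSP90AA1: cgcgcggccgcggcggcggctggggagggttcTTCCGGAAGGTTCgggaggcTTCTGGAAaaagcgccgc
HSP90AB1: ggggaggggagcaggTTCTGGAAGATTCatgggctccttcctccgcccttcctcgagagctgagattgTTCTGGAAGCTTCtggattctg
In each, adjoining units join into longer runs, the 3-unit form in which GAANNTTC is followed by NNGAA or TTCNNGAA by NNTTC: HSP90AA1 has 1 such run, beginning at base -88, and HSP90AB1 has 2, beginning at bases -165 and -112. HSP90AB1 holds more matches in its window than HSP90AA1. Whether the matches bear on the level of either gene was not tested.

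The cytosolic HSP70 genes past the filter were lower in the DDX5 shRNA library, and the mitochondrial HSPA9 was higher. HSPA8, the constitutive cytosolic HSP70 that also uncoats clathrin vesicles, stood at 643.49 FPKM in the DDX5 shRNA library and 1652.26 FPKM in the non-targeting library, a log2 ratio of -1.36, and 15.7% of its windows occur in another gene. HSPA1B, an HSP70 gene known for strong induction by heat, stood at 8.16 FPKM in the DDX5 shRNA library and 29.62 FPKM in the non-targeting library, a log2 ratio of -1.74. Its near-identical neighbour HSPA1A was listed at 0 in the DDX5 shRNA library and at 0.11 FPKM in the non-targeting library. Of its 50-base windows, 72.5% also occur in HSPA1B. The division of reads between the 2 genes is therefore uncertain, and their sum was 8.16 FPKM in the DDX5 shRNA library and 29.73 FPKM in the non-targeting library, a log2 ratio of -1.75. The inducible sum was thus 1.25% of the total with HSPA8 in the DDX5 shRNA library and 1.77% in the non-targeting library, so nearly all cytosolic HSP70 transcript came from HSPA8 in each. HSPA14, a ribosome-associated HSP70, stood at 18.47 FPKM in the DDX5 shRNA library and 30.93 FPKM in the non-targeting library. HSPA2, best known for its role in sperm, was below the filter, at 0.36 FPKM in the DDX5 shRNA library and 1.01 FPKM in the non-targeting library. HSPA9, the mitochondrial HSP70 that pulls imported proteins into the matrix, went the other way, at 396.92 FPKM in the DDX5 shRNA library and 269.54 FPKM in the non-targeting library, a log2 ratio of 0.56.

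The windows of the cytosolic HSP70 genes are shown because the inducible copies and HSPA8 differ in their matches. The stretches are chr11:123062167-123062216, minus strand, bases -80 to -31, chr6:31815413-31815462, plus strand, and chr6:31827608-31827657, plus strand, both bases -130 to -81, from the same source and with the same capitals.
HSPA8: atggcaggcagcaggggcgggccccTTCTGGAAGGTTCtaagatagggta
HSPA1A: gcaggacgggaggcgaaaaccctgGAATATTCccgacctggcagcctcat
HSPA1B: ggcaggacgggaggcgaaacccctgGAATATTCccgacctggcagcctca
HSPA8 holds a 3-unit match at base -55 and another at base -230, whereas HSPA1A and HSPA1B each hold a single 2-unit match in their windows. The upstream sequences of HSPA1A and HSPA1B were 94.4% identical over 249 bases at an offset of 1 base.

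The HSP110 proteins are large HSP70 relatives that exchange its nucleotide and help to take aggregates apart. HSPH1, the heat-inducible one, stood at 16.65 FPKM in the DDX5 shRNA library and 49.16 FPKM in the non-targeting library, a log2 ratio of -1.51. HSPA4, its constitutive paralog, stood at 95.36 FPKM in the DDX5 shRNA library and 126.18 FPKM in the non-targeting library, a log2 ratio of -0.40. HSPH1 made up 14.9% of the pair in the DDX5 shRNA library and 28.0% in the non-targeting library. HSPA4L, a further relative, stood at 7.39 FPKM in the DDX5 shRNA library and 11.54 FPKM in the non-targeting library. No window of HSPH1 or HSPA4 is shared with another gene.

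J proteins deliver clients to HSP70 and start its ATP cycle, and 5 of the 7 had a log2 ratio below 0, beside 47.8% of all genes. DNAJA1, a heat-inducible partner of HSPA8, stood at 84.11 FPKM in the DDX5 shRNA library and 238.47 FPKM in the non-targeting library, a log2 ratio of -1.49. Its relative DNAJA2 stood at 26.97 FPKM in the DDX5 shRNA library and 34.53 FPKM in the non-targeting library, a log2 ratio of -0.35. DNAJA1 thus made up 75.7% of the pair in the DDX5 shRNA library and 87.4% in the non-targeting library. DNAJB1, which is strongly induced by heat and works with HSP110 in disaggregation, differed less, at 69.88 FPKM in the DDX5 shRNA library and 85 FPKM in the non-targeting library, a log2 ratio of -0.28. DNAJB4, another heat-inducible J protein gene, stood at 15.63 FPKM in the DDX5 shRNA library and 16.35 FPKM in the non-targeting library. DNAJC7, which binds both HSP70 and HSP90, had a log2 ratio of -0.59. DNAJB6, which restrains polyglutamine aggregation, stood slightly higher at 89.91 FPKM in the DDX5 shRNA library against 78.23 FPKM in the non-targeting library, and so did DNAJA3, the mitochondrial J protein, at 63.51 FPKM in the DDX5 shRNA library against 52.11 FPKM in the non-targeting library.

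Of the 6 J protein genes that were not 2-fold apart, DNAJB1, DNAJB4 and DNAJB6 have heat shock element matches in their windows, whereas DNAJA2, DNAJA3 and DNAJC7 have none. The stretches are chr19:14518423-14518492, minus strand, bases -95 to -26, chr7:157336859-157336898, plus strand, and chr1:78004824-78004863, plus strand. They are shown as counterparts to the genes with low ratios above.
DNAJB1: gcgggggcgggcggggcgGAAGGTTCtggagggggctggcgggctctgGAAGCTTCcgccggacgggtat
DNAJB6: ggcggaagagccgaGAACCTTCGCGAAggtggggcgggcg
DNAJB4: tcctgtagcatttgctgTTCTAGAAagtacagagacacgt
DNAJB6 holds a 3-unit match beginning at base -131, and DNAJB4 a 2-unit match at base -98. DNAJA1 has its 3-unit match just after the annotated start, beginning at base 4.

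**Figure D2:**
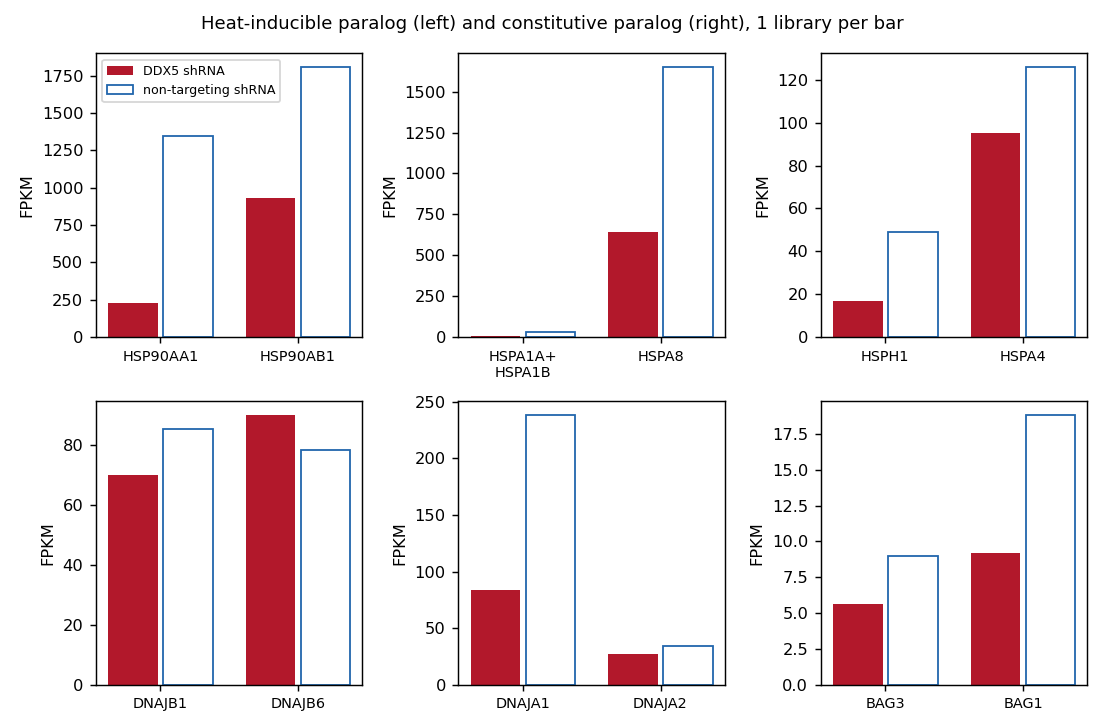
FPKM of 6 pairs of a heat-inducible member (left in each panel) and a constitutive relative (right), with a filled bar for the DDX5 shRNA library and an open bar for the non-targeting library, 1 library per bar. The inducible member has the lower ratio in 5 of the 6 pairs, all but BAG3 with BAG1.

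Across the 6 pairs fixed for comparison, the log2 ratio of the inducible member minus that of the constitutive one was -1.62 for HSP90AA1 with HSP90AB1 and -1.15 for DNAJA1 with DNAJA2. It was -1.11 for HSPH1 with HSPA4, -0.48 for DNAJB1 with DNAJB6 and -0.39 for the HSPA1A and HSPA1B sum with HSPA8. For BAG3 with BAG1 it was 0.37, so this pair ran against the others. The pairs were chosen with earlier results of these libraries known, and the direction of the difference is a description of 1 library per condition.

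The 5 mitochondrial members differed in direction, 3 lower and 2 higher, beside a log2 ratio below 0 for 47.8% of all genes. HSPD1, the chaperonin that forms a folding chamber in the matrix, stood at 453.7 FPKM in the DDX5 shRNA library and 922.89 FPKM in the non-targeting library, a log2 ratio of -1.02. HSPE1, the lid of that chamber, stood at 161.54 FPKM in the DDX5 shRNA library and 454.54 FPKM in the non-targeting library, a log2 ratio of -1.49. HSPA9 was higher, as given above, so that the ratio of HSPA9 to HSPD1 levels was 0.87 in the DDX5 shRNA library and 0.29 in the non-targeting library. HSPD1 and HSPE1 are neighbours transcribed in opposite directions, and the ratio of HSPD1 to HSPE1 levels was 2.81 in the DDX5 shRNA library and 2.03 in the non-targeting library. A transcript that reads through from HSPE1 into MOB4 shares sequence with HSPE1 and was listed at 0 in the DDX5 shRNA library and 0.71 FPKM in the non-targeting library. Of the windows of HSPD1, 24.9% occur in another gene that is not protein-coding, and of those of HSPE1, 27.5% occur in another gene of any kind.

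The sequence between the outermost annotated starts of HSPD1 and HSPE1 is shown because it lies in front of both genes. It spans 104 bases, chr2:197500275-197500378, plus strand, and holds no match to the 2-unit form.
HSPD1-HSPE1: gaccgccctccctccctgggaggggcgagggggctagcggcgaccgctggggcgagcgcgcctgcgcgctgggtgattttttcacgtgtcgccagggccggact
The 3-unit matches counted for HSPD1 lie inside the gene, beginning at bases -245 and -240 from its other annotated start, which is further downstream.

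Small heat shock proteins hold unfolded proteins without using ATP, and their transcripts went in both directions. HSPB1, the most abundant of them here, stood at 405.78 FPKM in the DDX5 shRNA library and 604.94 FPKM in the non-targeting library, a log2 ratio of -0.57. CRYAB, the alpha-B crystallin that binds desmin and actin filaments, stood at 42.62 FPKM in the DDX5 shRNA library and 13.29 FPKM in the non-targeting library, a log2 ratio of 1.61. HSPB8, which works with BAG3 to send aggregates to autophagy, stood at 26.01 FPKM in the DDX5 shRNA library and 17.59 FPKM in the non-targeting library, a log2 ratio of 0.54. HSPB11, which despite its name is a subunit of the intraflagellar transport complex of cilia, stood at 45.23 FPKM in the DDX5 shRNA library and 65.05 FPKM in the non-targeting library. CRYAB and HSPB8 are both heat-inducible and were both higher, unlike the other 15 heat-inducible members past the filter. The family median was 0.01, and -0.10 with both libraries at the same total or -0.01 with ratios centred on the median of all genes. The HSPB8 stretch with its upstream match, chr12:119178826-119178865, plus strand, is shown as that of a heat-inducible gene with a higher value.
HSPB8: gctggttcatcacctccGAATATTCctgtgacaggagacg

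HSP70 co-chaperones include the BAG proteins, which release its nucleotide. BAG1 stood at 9.2 FPKM in the DDX5 shRNA library and 18.83 FPKM in the non-targeting library, a log2 ratio of -0.96. BAG3, the heat-inducible member, stood at 5.64 FPKM in the DDX5 shRNA library and 8.97 FPKM in the non-targeting library, a log2 ratio of -0.59. BAG2, which inhibits the ubiquitin ligase CHIP, was nearly equal at 45.3 FPKM in the DDX5 shRNA library and 44.55 FPKM in the non-targeting library. STUB1, which encodes CHIP, stood at 56.63 FPKM in the DDX5 shRNA library against 62 FPKM in the non-targeting library. ST13, which stabilises HSP70 in its client-bound state, stood at 95.64 FPKM in the DDX5 shRNA library and 102.95 FPKM in the non-targeting library, and 30.7% of its windows occur in another gene. HSPBP1, a nucleotide exchange factor, had a log2 ratio of -0.69. None of the 6 was 2-fold apart on FPKM + 1, beside 2.26% of all genes at least 2-fold lower and 4.19% at least 2-fold higher. With both libraries at the same total, BAG1 was at least 2-fold lower, beside 3.33% of all genes.

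All 7 HSP90 co-chaperones had lower values in the DDX5 shRNA library, beside a log2 ratio below 0 for 47.8% of all genes. Their median log2 ratio was -0.83. CHORDC1, a heat-inducible zinc-binding HSP90 partner, stood at 10.91 FPKM in the DDX5 shRNA library and 23.84 FPKM in the non-targeting library, a log2 ratio of -1.06. FKBP4, an immunophilin of steroid receptor complexes, stood at 73.91 FPKM in the DDX5 shRNA library and 140.77 FPKM in the non-targeting library. STIP1, which bridges HSP70 and HSP90, stood at 138.71 FPKM in the DDX5 shRNA library and 257.15 FPKM in the non-targeting library. Their log2 ratios were -0.92 for FKBP4 and -0.89 for STIP1, under 2-fold apart. AHSA1, the activator of the HSP90 ATPase, had a log2 ratio of -0.83. PTGES3, the p23 protein that closes the HSP90 cycle, had -0.65, and CACYBP, a binder of calcyclin, had -0.64. CDC37, which loads protein kinases onto HSP90, differed least, at 196.8 FPKM in the DDX5 shRNA library and 251 FPKM in the non-targeting library. The HSP90AA1 and HSP90AB1 sum was 8.32 times the STIP1 level in the DDX5 shRNA library and 12.3 times in the non-targeting library. Against CDC37 the sum was 5.86 times in the DDX5 shRNA library and 12.6 times in the non-targeting library. HSP90AB1 alone was 6.70 times the STIP1 level in the DDX5 shRNA library and 7.04 times in the non-targeting library, so the difference in the ratio to STIP1 lay mostly with HSP90AA1.

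The window of CHORDC1 is shown because it holds the longest run of units among the members. The stretch is chr11:90223065-90223124, minus strand, bases -75 to -16.
CHORDC1: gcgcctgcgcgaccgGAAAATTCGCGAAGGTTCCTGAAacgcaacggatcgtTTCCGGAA
Its 3-unit matches begin at bases -60, -55 and -50 and overlap one another.

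All 8 subunits of TRiC had lower values in the DDX5 shRNA library, beside a log2 ratio below 0 for 47.8% of all genes. Their median log2 ratio was -0.59, but they differed by unequal amounts. TCP1, the alpha subunit, differed most, at 93.11 FPKM in the DDX5 shRNA library and 185.69 FPKM in the non-targeting library, 50.1% of the control. CCT7, the eta subunit, differed least, at 501.61 FPKM in the DDX5 shRNA library and 532.67 FPKM in the non-targeting library, 94.2% of the control. The other 6 subunits lay between 61.0% (CCT6A) and 73.6% (CCT4). Although the ring holds each subunit once per ring, transcript levels were uneven in each library: the highest subunit was 5.39 times the lowest in the DDX5 shRNA library and 3.05 times in the non-targeting library. CCT7 was the highest in each library, whereas the lowest was TCP1 in the DDX5 shRNA library and CCT2 in the non-targeting library.

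Prefoldin, the partner of TRiC, differed little. Its 6 subunits summed to 711.53 FPKM in the DDX5 shRNA library and 760.79 FPKM in the non-targeting library, with a median log2 ratio of -0.10. VBP1 had the lowest ratio, at 52.29 FPKM in the DDX5 shRNA library and 72.03 FPKM in the non-targeting library. PFDN6 was the 1 subunit with a higher value, at 100.16 FPKM in the DDX5 shRNA library against 94.75 FPKM in the non-targeting library, and its log2 ratio of 0.08 became -0.03 with both libraries at the same total. PFDN5, which is also known as the MYC modulator MM-1, had the highest level, at 283.65 FPKM in the DDX5 shRNA library and 301.38 FPKM in the non-targeting library.

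**Figure D3:**
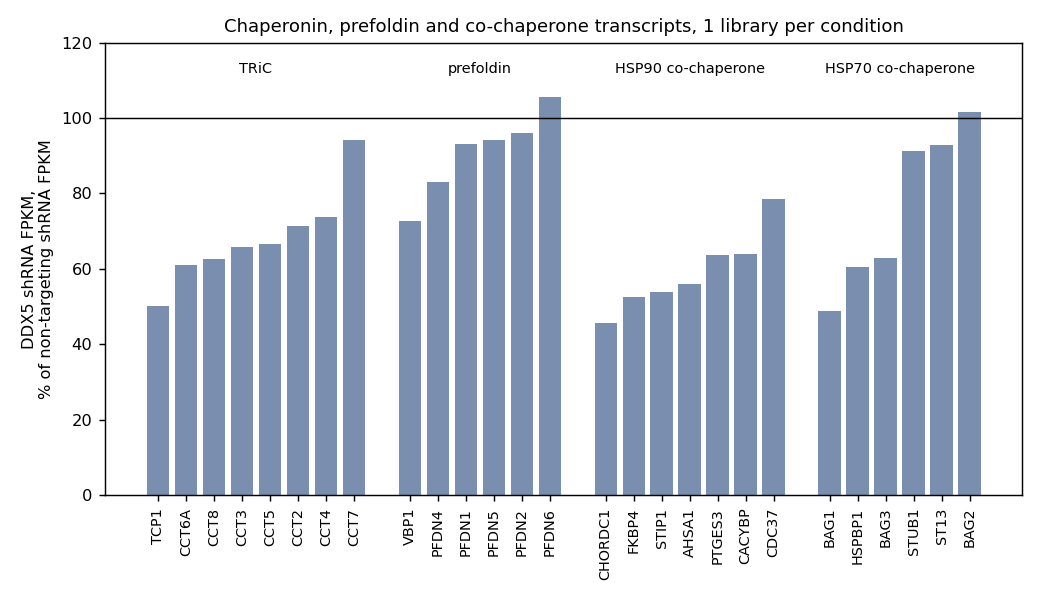
FPKM in the DDX5 shRNA library as a percentage of that in the non-targeting library, for the subunits of TRiC and prefoldin and for the HSP90 and HSP70 co-chaperones, 1 library per condition and no error bars. TRiC subunits run from 50.1% for TCP1 to 94.2% for CCT7, while PFDN6 and BAG2 are above 100%.

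Other genes of cytosolic and mitochondrial folding had a median close to that of all genes. A list of 61 such genes, outside the members, had 52 past the filter. Their median log2 ratio was 0.02 (-0.10 with both libraries at the same total). At least 2-fold lower were 2 of them, beside 2.26% of all genes, and 2 were at least 2-fold higher, beside 4.19%. NUDC, a dynein regulator and HSP90 partner, stood at 52.63 FPKM in the DDX5 shRNA library and 132.06 FPKM in the non-targeting library, and DNAJC2, a ribosome-associated J protein gene, at 26.03 FPKM in the DDX5 shRNA library and 57.77 FPKM in the non-targeting library. LONP1, the main protease of the mitochondrial matrix, was higher, at 146.65 FPKM in the DDX5 shRNA library and 65.81 FPKM in the non-targeting library. CCT6B, the testis relative of CCT6A, was the other, at 2.3 FPKM in the DDX5 shRNA library and 0.17 FPKM in the non-targeting library (chosen after its value was seen). Of 4 heat-inducible genes that are not chaperones of the member families, none was 2-fold apart. Of all genes, 2.26% were at least 2-fold lower and 4.19% at least 2-fold higher, so a count over 4 genes says little. The polyubiquitin gene UBB stood at 543.28 FPKM in the DDX5 shRNA library and 410.5 FPKM in the non-targeting library. The collagen chaperone gene SERPINH1 stood at 293.55 FPKM in the DDX5 shRNA library and 304.18 FPKM in the non-targeting library. A set of 9 HSP90, HSP70, HSP110 and J protein paralogs of the endoplasmic reticulum had a median of 0.29. A log2 ratio below 0 was found for 2 of them, beside 47.8% of all genes. HSPA5, the reticulum's HSP70, stood at 334.43 FPKM in the DDX5 shRNA library and 273.25 FPKM in the non-targeting library, whereas its HSP90, HSP90B1, stood at 204.59 FPKM in the DDX5 shRNA library and 328.51 FPKM in the non-targeting library. DNAJB9 was the 1 paralog at least 2-fold higher, at 12.19 FPKM in the DDX5 shRNA library and 3.52 FPKM in the non-targeting library. The differences between these lists and the members were not tested.

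**Figure D4:**
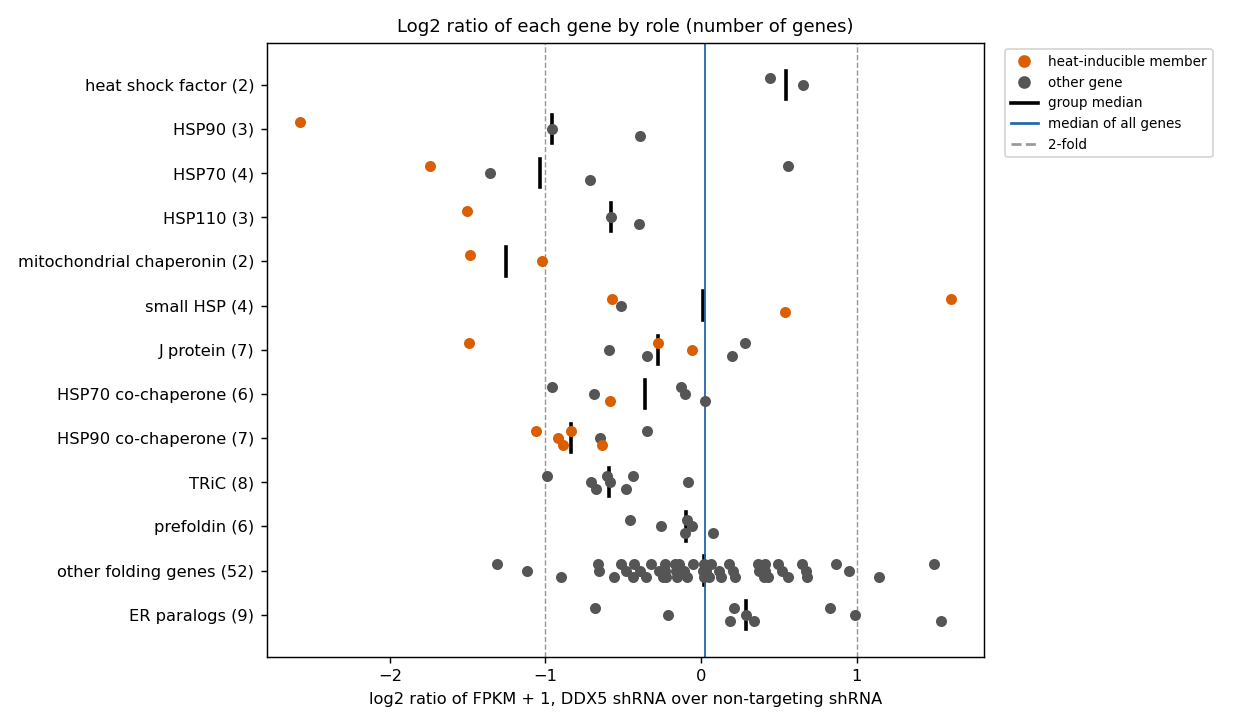
Log2 ratio of FPKM + 1, DDX5 shRNA over non-targeting shRNA, for each gene past the filter, by role, with 1 library per condition. Black bars are group medians, the blue line is the median of all genes and dashed lines mark 2-fold. HSP90, HSP70, HSP110, the mitochondrial chaperonin, HSP90 co-chaperones and TRiC have medians from -1.25 to -0.58, while prefoldin, the small heat shock proteins and the other folding genes lie near 0.

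Heat shock element matches were then counted in windows from 250 bases before to 50 after each annotated start. Windows were found for 46 of the 54 members, without HSF1, HSPA14, CRYAB, ST13, STUB1, FKBP4, CCT6A and PFDN2. The 2-unit form, GAANNTTC or TTCNNGAA, reads the same on both strands. It occurred at 21 of the 46 members (45.7%), against 16.2% of all 27305 genes with a window and 13.7% of genes past the filter. The 3-unit form, given above and also searched on both strands, which contains overlapping 2-unit matches and was added after the data were seen, occurred at 7 of 46 members (15.2%), against 0.608% of all genes. By window, 33.8% of 68 member windows held the 2-unit form and 10.3% the 3-unit form, against 13.5% and 0.490% of all 35116 windows. Of the 8 members at least 2-fold lower, 5 had a 3-unit match (HSP90AA1, DNAJA1, HSPA8, CHORDC1 and HSPD1). Among the other 38 with a window, 2 had one (HSP90AB1 and DNAJB6). These 38 include HSPA1A and HSPA2, which are below the filter and so could not be counted as lower. The HSPD1 matches lie inside the gene, before its other annotated start. HSPH1 and HSPE1, at least 2-fold lower, had no match of either form, which says only that these letters are not in these windows. Outside the members, 35 genes past the filter had a 3-unit match, with a median log2 ratio of -0.14 and 1 at least 2-fold lower, the ganglioside synthase gene ST3GAL5 (2.87 FPKM in the DDX5 shRNA library and 8.5 FPKM in the non-targeting library, chosen after its value was seen). Beside these, 9237 genes past the filter had a window and no 3-unit match. Of those, 193 were at least 2-fold lower, and their median log2 ratio was 0.02. A match is a description of sequence, and binding of HSF1 was not measured.

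**Figure D5:**
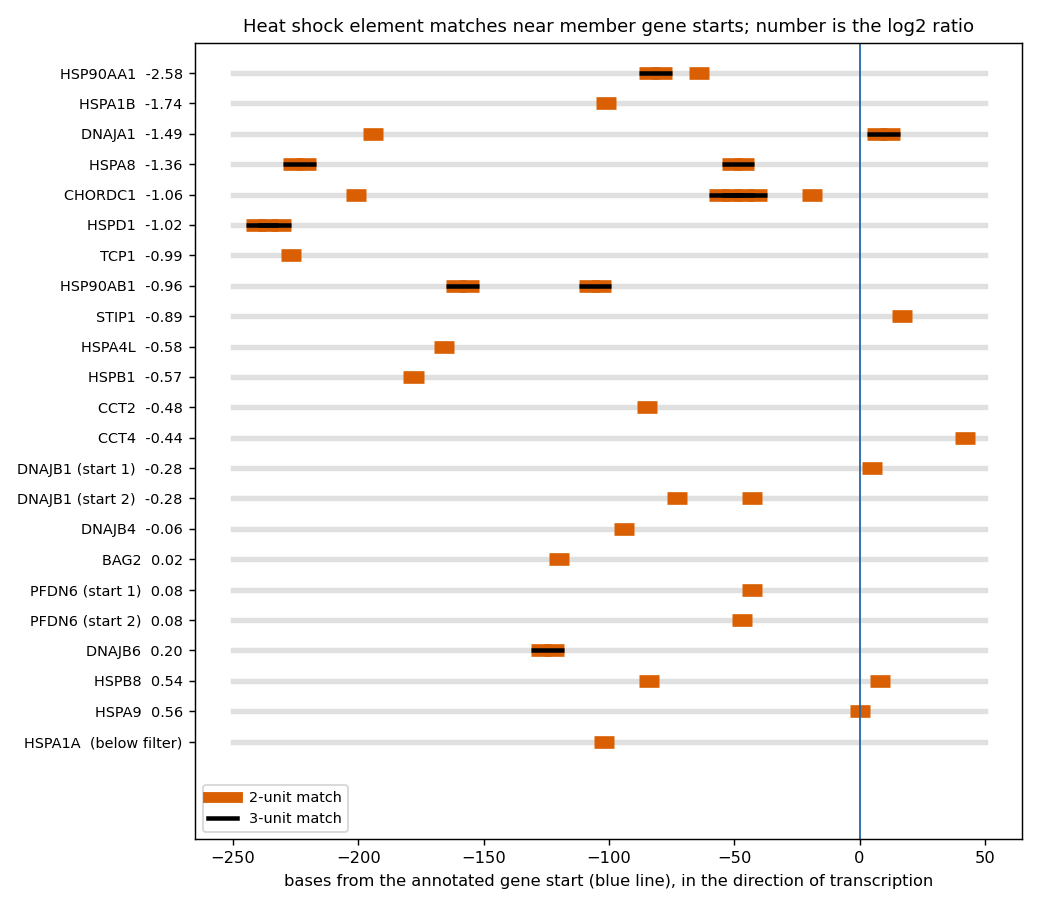
Positions of 2-unit (orange) and 3-unit (black) heat shock element matches from 250 bases before to 50 after the annotated start, for the members with a match, ordered by log2 ratio, which is printed beside each name except HSPA1A, which is below the filter. The 3-unit matches of HSP90AA1, HSPA8, CHORDC1 and HSP90AB1 lie before the start, in the upper part of the plot, whereas DNAJB6, near the bottom, also has one.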

How the data were processed

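Total RNA of HGC-27 cells was sequenced, 1 library for the DDX5 shRNA condition and 1 for the non-targeting shRNA condition. The authors deposited FPKM values per gene in 1 table, per the file headers. Build hg19 and the tools RSEM 1.2.8, Bowtie2 and HISAT appear, without roles or order, in the submitters' processing notes. Annotation, strand setting and filters were not given in the sources used here. RSEM divides reads shared by similar genes by estimation. Columns were assigned by sample title. Entrez numbers were named from RefSeq (GRCh38.p14), which matched 15289 of 16021 rows, and no hg19 coordinates are given.

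Ratios are log2 values of (FPKM + 1) in the DDX5 shRNA library over (FPKM + 1) in the non-targeting library, a scale that shrinks differences of genes at low levels. Statements of 2-fold refer to that scale, and percentages of the control to deposited FPKM. Genes at a mean of 1 FPKM or more (11413) entered counts and medians. No test could be run without replicates. Fragment totals were estimated from genes with 1 annotated transcript: at the best step 72.9% of 70 genes in the DDX5 shRNA library and 72.5% of 69 genes in the non-targeting library fell within 0.15 of a whole number, too few to recover counts. Shared sequence was the share of 50-base windows, taken every 10 bases along the longest coding GENCODE v29 transcript, found in another gene's transcript. Promoter windows came from RefSeq (GRCh38.p14), and their orientation was checked on overlapping windows of opposite strands. The members, the lists, the heat-inducible class and the pairs were chosen with earlier results of these data known. All members could be named, and from other lists the genes at least 2-fold apart whose mean reached 5 FPKM, plus the 3 with the highest mean, of which 1 gene is not reported here. Alternatives were other pseudocounts, filters and scalings. The ratio was tested on simulated data. Python 3.11.15, numpy 2.4.6, pandas 2.3.3 and matplotlib 3.10.9 were used.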

Additional observations from a re-analysis of the deposited data

How the results depend on the processing

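The count of 8 members at least 2-fold lower was 9 with a pseudocount of 0.1 or with ratios centred on the median of all genes, 7 with a pseudocount of 5, and 8 with no filter or a filter at a mean of 5 FPKM. Over all 11413 genes the count of 258 was 390 with a pseudocount of 0.1, 281 when centred and 102 with a pseudocount of 5. The member count was 13 with both libraries at the same total FPKM, beside 380 of 11409 genes. That setting adds HSP90AB1, BAG1, STIP1, FKBP4 and TCP1. Among the members with under 10% of windows in another gene, the count was 3. CRYAB remained the 1 member at least 2-fold higher with either pseudocount, either filter and either scaling. The median log2 ratio of the members, -0.54, was -0.45 with a pseudocount of 5, -0.66 at the same total and -0.44 among the members with little shared sequence, and that of the members not classed as heat-inducible, -0.40, was -0.51 at the same total. The signs that changed were those of BAG2 (0.02, against -0.09 at the same total and -0.0008 when centred) and PFDN6. HSPA1A, listed at 0 in the DDX5 shRNA library, and HSPA2, both below the filter, were past 2-fold lower with a pseudocount of 0.1, at -1.07 and -1.27. With no filter, which adds these genes, the HSP70 family median was -0.64, against -1.04 with the filter. No paired analysis was possible because each condition has 1 library. The cause of these shifts was not tested. Spread between cultures was not measured, so how far repeat cultures of 1 condition would differ is unknown.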
